A study of Homo sapiens with 27 samples.

Results

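The 8 genes described here encode proteins of the nuclear lamina and the inner nuclear membrane: LMNA, LMNB1, LMNB2, LBR, EMD, LEMD3, SUN1 and SUN2. They were taken by symbol through their Ensembl gene IDs, without regard to their values, and make up 8 of the 34464 genes in the table. All 8 had a mean above 1 FPKM (a level scaled for transcript length and for the fragments in the library) and are among the 14611 genes tested. The study asked how mRNAs are divided between nucleus and cytoplasm when TPR, a large coiled-coil protein of the nuclear pore basket, is depleted from U2OS cells, a human osteosarcoma line. Cells received a lentivirus with a control shRNA, with the shRNA TPR A or with TPR D, a second shRNA against the same mRNA, and were harvested after 5 days. They were fractionated with detergent into a nuclear fraction and a fraction of cytoplasm with endoplasmic reticulum (cytoplasmic/ER), and a total sample was kept. Poly(A)+ RNA of the 3 fractions, 3 shRNAs and 3 replicates gave 27 libraries in 9 groups of 3.

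The nuclear lamina is a mesh of intermediate filaments, the lamins, that lines the inner nuclear membrane and holds heterochromatin and nuclear pores in place. Membrane proteins tie it to the envelope. LBR binds B-type lamins and heterochromatin, emerin (EMD) and MAN1 (LEMD3) carry the LEM domain that binds the chromatin protein BAF, and SUN1 and SUN2 cross the membrane to meet nesprins of the outer membrane, which hold the cytoskeleton. TPR sits on the nucleoplasmic face of the pores, which are embedded in this same envelope.

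The lamin genes differ at the ends of their coding sequences, and the ends of lamin A and the B-type lamins are shown because they carry the signal that ties these lamins to the membrane. LMNA gives lamin A and lamin C by alternative splicing, so its FPKM sums both products, while LMNB1 and LMNB2 each give a single main lamin. The last 30 coding bases of lamin A, lamin B1 and lamin B2, stop codon included, are shown in GRCh37, read 5′ to 3′ on the coding strand, with capitals on the 4 codons of the CaaX box, a signal at which the cysteine is farnesylated.
Lamin A, LMNA, chr1:156108546-156108897, + strand, 664 coding codons: cagagcccccagaacTGCAGCATCATGtaa
Lamin B1, LMNB1, chr5:126171927-126171956, + strand, 586 coding codons: gcatccaatagaagcTGTGCAATTATGtaa
Lamin B2, LMNB2, chr19:2430909-2430938, - strand, 620 coding codons: accacctcaagaggcTGCTACGTGATGtga
The lamin A span includes an intron, since its last bases lie on both sides of a splice junction. Prelamin A loses its farnesylated end to the protease ZMPSTE24, while the B-type lamins keep theirs.

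All 8 are multi-exon protein-coding genes in GENCODE release 44 placed on GRCh37. LMNA (ENSG00000160789, + strand) lies at chr1:156052364-156109872, LMNB1 (ENSG00000113368, + strand) at chr5:126112315-126172712 and LMNB2 (ENSG00000176619, - strand) at chr19:2427636-2456957. LBR (ENSG00000143815, - strand) lies at chr1:225589204-225616627, EMD (ENSG00000102119, + strand) at chrX:153607633-153609934 and LEMD3 (ENSG00000174106, + strand) at chr12:65563363-65642135. SUN1 (ENSG00000164828, + strand) lies at chr7:856252-936072 and SUN2 (ENSG00000100242, - strand) at chr22:39129295-39190148. EMD is the compact member, with a canonical transcript of 6 exons and a pre-mRNA of 2229 nt, and LEMD3 is the long one, with 13 exons and 78773 nt.

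The libraries were checked against their labels before the members were compared. TPR stood at 24.3 to 28.2 FPKM in the control total libraries, 3.55 to 4.86 with TPR A and 3.39 to 6.30 with TPR D. Transcripts of the mitochondrial genome made up 26.5 to 37.9% of FPKM in the cytoplasmic/ER libraries. Their share was 21.8% in the nuclear library labelled control replicate 2 (0.774 to 2.42% in the other 8 nuclear libraries). The total library with the same label held 0.738% (15.8 to 24.7% in the other 8 total libraries). These 2 libraries therefore go against their fraction labels, and values without them are given where they move a result. The nuclear one was closer to the mean of the other total libraries (Pearson's r 0.976) than of the nuclear ones (0.944). The total one was closer to the mean of the other nuclear libraries (0.972) than of the total ones (0.940). Both are kept under their labels in the main values. MALAT1 and NEAT1 were also read in this check. Without control replicate 2, MALAT1 was at 15.96 to 39.5 FPKM in nuclear, 73.8 to 217 in total and 2.20 to 16.04 in cytoplasmic/ER libraries. In control replicate 2 it was at 82.9 in the nuclear and 15.4 in the total library. NEAT1 reached 66.1 in the other nuclear and 155 in the other total libraries, with overlapping ranges. Why MALAT1 was lower in nuclear than in total libraries was not tested, nor was its bearing on the members. The naming style of the replicate 1 libraries differs from that of replicates 2 and 3, so values within replicate 1 (with no test) and within replicates 2 and 3 are given where the direction or size differs and beside the largest differences. Of the U2OS markers, VIM was at 854 to 2500 FPKM, SPARC at 269 to 560, COL1A1 at 20.6 to 58.5 and RUNX2 at 7.85 to 24.5 in the 9 total libraries, but COL1A2 was near 0 (0.135 to 0.476). The 7 markers of other cell types summed to 3.54 to 6.04 FPKM in control, 5.46 to 8.90 in TPR A and 4.57 to 8.23 in TPR D total libraries, with CD3E at 0 in 7 and ALB at 0 in 8 of the 9, and EPCAM highest, at 2.96 to 6.87.

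In total RNA of control cells LMNA was the most abundant member and LEMD3 the least. On the FPKM scale, after division by median-of-ratios factors, LMNA stood at 219, 648 and 273 in replicates 1 to 3 (mean 380 ± 234, SD, n = 3), and LEMD3 at 8.30, 9.70 and 6.86 (8.29 ± 1.42). The other 6 lay between them in the order LMNB1 (96.0 ± 44.6), LBR (92.7 ± 10.2), LMNB2 (78.9 ± 25.8), EMD (75.2 ± 9.37), SUN1 (64.9 ± 10.9) and SUN2 (45.2 ± 17.2), and the values of each of these neighbours overlapped. Only LMNA above and LEMD3 below stood apart from their neighbours over the 3 libraries. The control replicate 2 library held the highest value of all 3 lamins, of SUN2 and of LEMD3. Without it LMNA averaged 246, LBR 94.4, EMD 80.6, LMNB1 73.4, LMNB2 64.6, SUN1 61.9, SUN2 36.6 and LEMD3 7.58, with LMNA first and LEMD3 last as before.

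**Figure D1:**
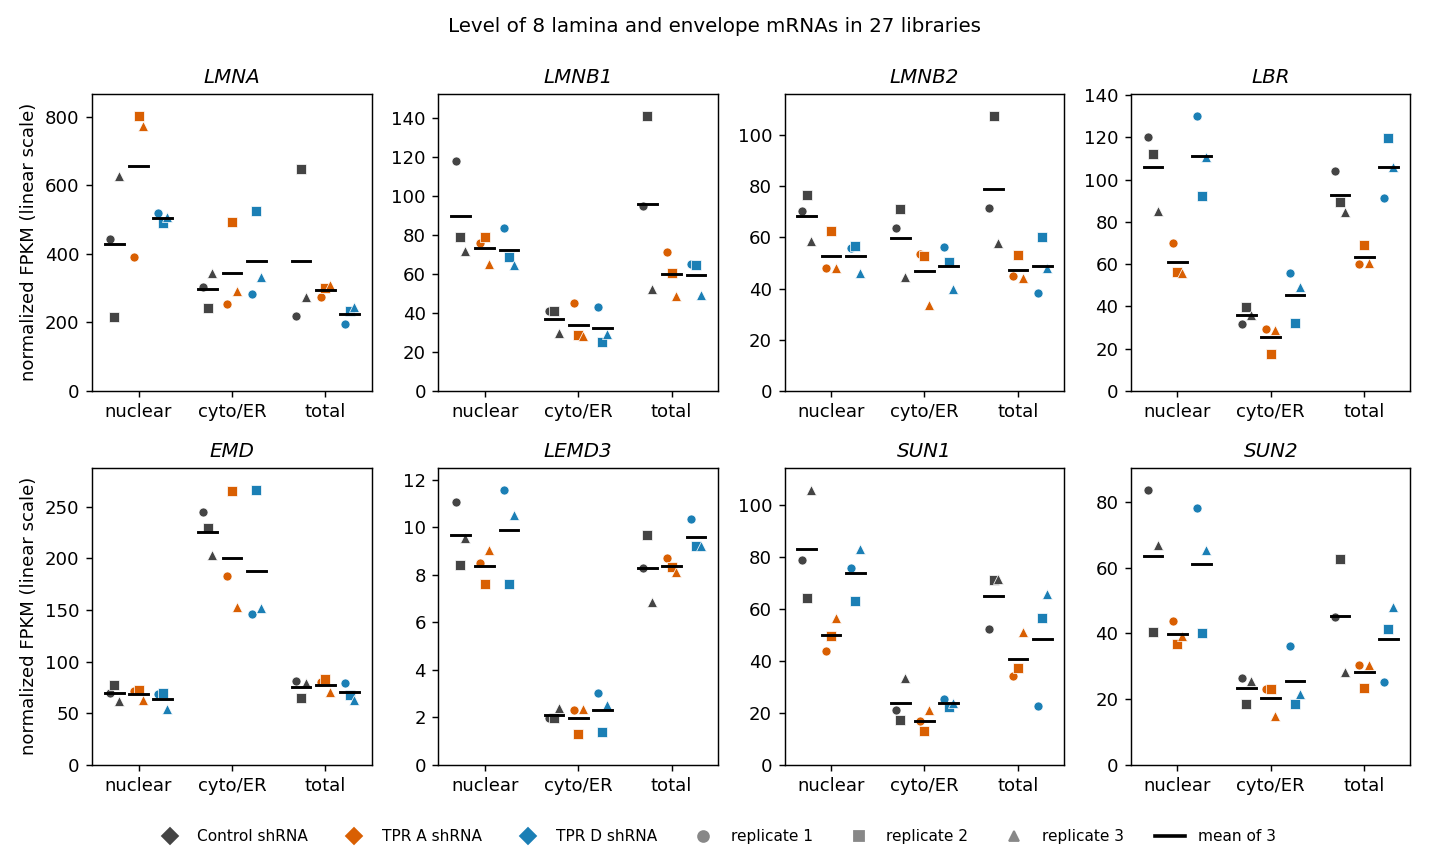
Normalized FPKM (linear y axis from 0, a separate scale for each gene) of the 8 members in the nuclear, cytoplasmic/ER and total libraries, with colours for the shRNA, symbols for the replicate and a bar at the mean of 3. EMD is highest in the cytoplasmic/ER libraries (203 to 244 FPKM in control cells), LBR is lowest with TPR A in each fraction, and the total library of control replicate 2 lies above the others for LMNA (648) and LMNB1 (141).

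The number of reads behind these values was estimated from the steps of 1 read between low values. Per kb of effective length, 1 FPKM was worth 40.6 to 87.2 reads in total, 45.0 to 60.5 in nuclear and 31.7 to 47.9 in cytoplasmic/ER libraries. For the members this came to between 212 reads, for LEMD3 in its lowest library, and 125343, for LMNA in its highest. Counting error at the lowest library was 6.87% for LEMD3 and 0.652% for LMNA. In the control total group the CV between replicates was 17.2% for LEMD3 and 61.5% for LMNA. The latter includes the 648 FPKM of the library labelled control replicate 2. Over the 9 groups the CV was 3.63 to 36.9% for LEMD3 and 2.70 to 61.5% for LMNA.

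The members were divided unevenly between the fractions. In control cells 6 of 8 passed the test of nuclear against cytoplasmic/ER RNA (limma on log2 values, Benjamini-Hochberg adjusted p below 0.05 over all genes tested), 5 of them higher in nuclear RNA and EMD lower. Of all genes tested 39.4% passed the same test, 2945 higher and 2805 lower. The median log2 ratio was 1.32 over the members and -0.01 over all genes. FPKM are relative to each library, so a ratio above 0 says that an mRNA took a larger share of nuclear than of cytoplasmic/ER poly(A)+ RNA, not that most of its copies were nuclear.

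Among the lamins, LMNB1, a B-type lamin bound to the membrane, was the one that passed. Its nuclear level in control cells was 118, 78.6 and 71.7 FPKM against 40.8, 40.7 and 29.4 in the cytoplasmic/ER libraries. The nuclear values all lay above the cytoplasmic/ER ones, with a log2 ratio of 1.25 ± 0.29 (SE, adjusted p = 0.00186 by limma). LMNB2, the other B-type lamin, was at 70.4, 76.5 and 58.5 FPKM in nuclear and 63.7, 71.1 and 44.7 in cytoplasmic/ER RNA, and these ranges overlapped (log2 ratio 0.21 ± 0.24, adjusted p = 0.511 by limma, 95% interval -0.29 to 0.71). LMNA was at 443, 217 and 627 FPKM in nuclear RNA and at 303, 242 and 344 in cytoplasmic/ER RNA. The low nuclear value is that of the library labelled control replicate 2, and with it the log2 ratio was 0.42 ± 0.38 (adjusted p = 0.400 by limma). Without the nuclear and total libraries of that culture, its cytoplasmic/ER library kept, the ratio of LMNA was 0.85 (adjusted p = 0.0362 by limma). Without the whole culture the mean ratio was 0.71 and LMNA did not pass. Its call thus depends on which of these libraries are kept.

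LBR, whose membrane domain is a sterol reductase and whose head binds lamin B and heterochromatin, was at 120, 112 and 85.2 FPKM in nuclear and at 31.7, 39.6 and 35.8 in cytoplasmic/ER RNA of control cells. All nuclear values lay above all cytoplasmic/ER values (log2 ratio 1.56 ± 0.22, adjusted p = 2.32e-05 by limma, a 2.94-fold difference). Without the nuclear and total libraries of control replicate 2 the ratio was 1.51, and without the whole culture its mean was 1.58.

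The LEM-domain genes lay at opposite ends. EMD stood at 69.5, 77.1 and 62.2 FPKM in nuclear RNA and at 244, 229 and 203 in cytoplasmic/ER RNA of control cells. It was 3.24-fold lower in nuclear RNA, with no overlap (log2 ratio -1.70 ± 0.22, adjusted p = 9.07e-06 by limma). LEMD3 was at 11.1, 8.43 and 9.57 FPKM in nuclear and at 1.96, 1.97 and 2.41 in cytoplasmic/ER RNA. Its 4.42-fold higher nuclear level was the largest ratio among the members (log2 ratio 2.14 ± 0.25, adjusted p = 4.49e-06 by limma). Over all 9 cultures, TPR-depleted ones included, EMD had a log2 ratio below 0 in 9 of 9 (-1.94 to -1.08) and LEMD3 above 0 in 9 of 9 (1.84 to 2.49).

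Both SUN genes were higher in nuclear RNA. SUN1 was at 78.7, 64.3 and 106 FPKM in nuclear and at 21.0, 17.1 and 33.6 in cytoplasmic/ER RNA of control cells (log2 ratio 1.82 ± 0.31, adjusted p = 0.000137 by limma). SUN2 was at 83.8, 40.4 and 66.9 FPKM in nuclear and at 26.4, 18.5 and 25.4 in cytoplasmic/ER RNA (log2 ratio 1.39 ± 0.33, adjusted p = 0.00214 by limma). Neither gene had overlapping fractions, and in each of the 9 cultures both had ratios above 0, SUN1 from 1.38 to 1.93 and SUN2 from 0.66 to 1.66. Without the nuclear and total libraries of control replicate 2, the control ratios were 1.99 for SUN1, 1.69 for SUN2, 1.33 for LMNB1, 0.13 for LMNB2, -1.77 for EMD and 2.24 for LEMD3, each on the same side of the threshold, and the median of the members was 1.42. That setting kept the cytoplasmic/ER library of the culture. With the whole culture left out, the mean ratios were 1.78 for SUN1, 1.53 for SUN2 and 1.41 for LMNB1. They were 0.27 for LMNB2, -1.76 for EMD and 2.19 for LEMD3.

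**Figure D2:**
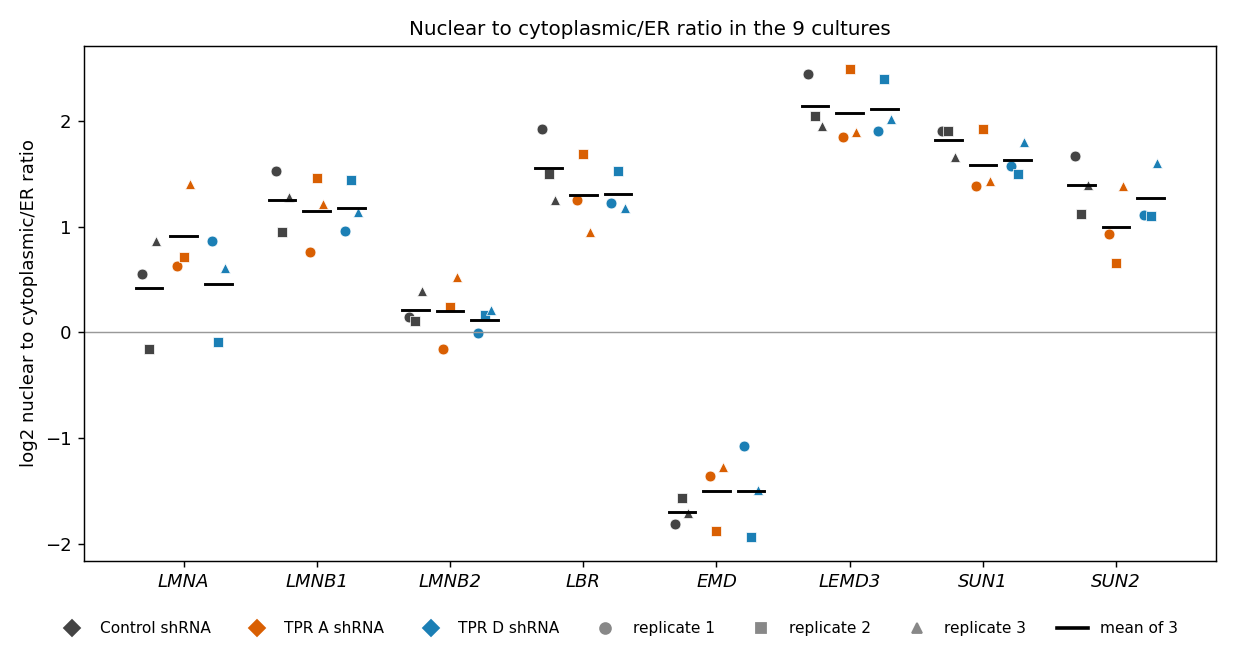
Log2 ratio of nuclear to cytoplasmic/ER level (y axis) of the 8 members in each of the 9 cultures, with colours for the shRNA, symbols for the replicate and a bar at the mean of 3. EMD lies below 0 in 9 of 9 cultures, LMNB1, LBR, LEMD3, SUN1 and SUN2 lie above 0 in 9 of 9, and the shRNA groups of each gene overlap.

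The same 6 members passed in TPR A cells and in TPR D cells, where 28.4% and 31.7% of all genes passed. In TPR A cells the log2 ratios were 1.14 for LMNB1, 1.30 for LBR, -1.50 for EMD, 2.08 for LEMD3, 1.58 for SUN1 and 0.99 for SUN2. SUN2 was the member nearest the threshold there (adjusted p = 0.0281 by limma), and its call was lost without each of the 3 TPR A cultures in turn and within replicates 2 and 3 (ratio 1.02, adjusted p = 0.0893 by limma). The call of LMNB1 was lost without TPR A replicate 2, with a ratio of 0.99. LMNA had a ratio of 0.91 in TPR A cells (adjusted p = 0.0746 by limma), which passed without the control replicate 2 nuclear and total libraries (0.0159), without that whole culture (0.0172) and with a minimum mean of 5 FPKM (0.0488), and of 0.46 in TPR D cells (adjusted p = 0.381 by limma). In TPR D cells the other ratios were 1.18 for LMNB1, 0.12 for LMNB2, 1.31 for LBR, -1.50 for EMD, 2.11 for LEMD3, 1.62 for SUN1 and 1.27 for SUN2. Here the call of LMNB1 was lost without TPR D replicate 2 (1.05) and that of SUN2 without TPR D replicate 3 (1.10).

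Pre-mRNA length, a property the choice of genes did not use, set EMD and LEMD3 far apart as well. As medians over their transcripts, EMD measured 2071.5 nt, longer than only 2.83% of the mRNAs tested, and LEMD3 78773 nt, longer than 82.9%. The control ratio of EMD was above that of 1.30% of mRNAs and that of LEMD3 above that of 98.3%. SUN1 (26295 nt) stood above 96.7% of mRNAs by ratio, LBR (18100 nt) above 94.3%, SUN2 (18183.5 nt) above 92.3% and LMNB1 (42046 nt) above 90.1%. LMNA (25207 nt) was above 66.9% and LMNB2 (28794 nt) above 58.3%. Length ordered the members only loosely, since by these medians LBR and SUN2 had shorter pre-mRNAs than LMNA and LMNB2 and higher ratios. By canonical transcript SUN2 (21265 nt) was still shorter than LMNA (25371 nt) and LMNB2 (28794 nt). LBR (26537 nt) was then longer than LMNA and shorter than LMNB2. Spearman's rho of pre-mRNA length and control ratio was 0.40 over the 8 members and 0.37 over 12333 mRNAs, across genes measured in the same libraries.

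**Figure D3:**
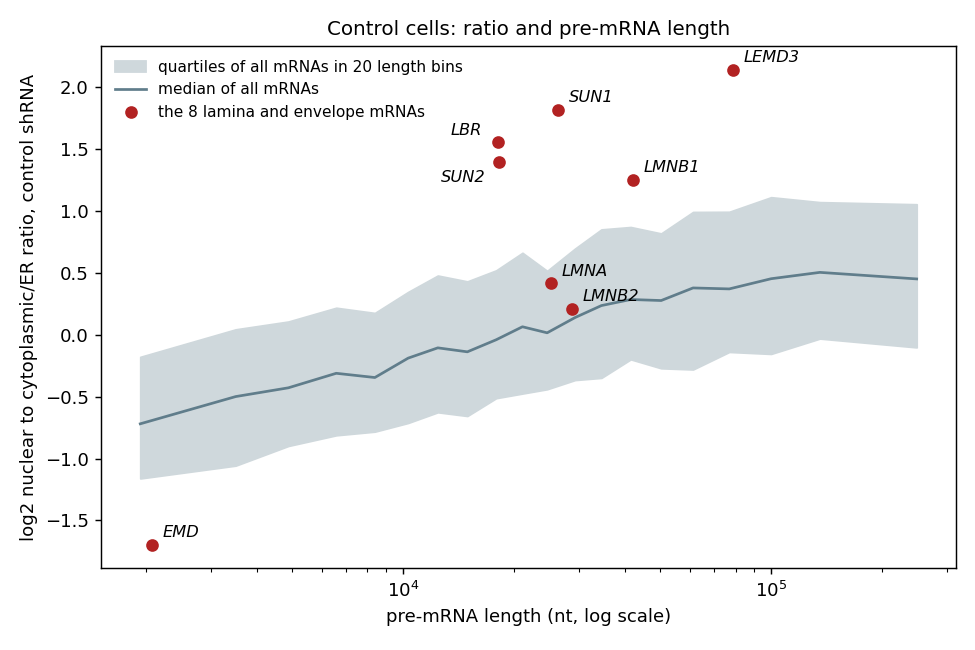
Log2 nuclear to cytoplasmic/ER ratio in control cells (y axis, mean of 3 cultures) against pre-mRNA length in nt (x axis, log scale) for the 8 members (red), over the median and quartiles of 12333 mRNAs in 20 length bins (grey). EMD (2071.5 nt, -1.70) lies below the quartile band and LEMD3 (78773 nt, 2.14), SUN1, LBR, SUN2 and LMNB1 lie above it.

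With TPR depleted, none of the 8 nuclear to cytoplasmic/ER ratios passed the test of a change. With limma the count was 0 of 8 in each comparison (TPR A or TPR D against control, both together, and one shRNA against the other), and none of the 8 had an unadjusted p under 0.05 in these comparisons. Of all genes 0% passed, while 1.47%, 0.821%, 1.72% and 0.335% had an unadjusted p under 0.05, in that order. LMNA differed by 0.49 (95% interval -0.62 to 1.61) with TPR A and by 0.04 (-1.07 to 1.15) with TPR D. Both values varied with the control replicate 2 libraries. Without the nuclear and total ones, with the cytoplasmic/ER one kept, they were 0.07 and -0.39. Against the control of the same number they were 0.08 and 0.32 in replicate 1 and 0.54 and -0.26 in replicate 3. LBR differed by -0.26 (-0.91 to 0.39) with TPR A and -0.25 (-0.89 to 0.40) with TPR D. These values were -0.67 and -0.70 within replicate 1 and -0.05 and -0.02 within replicates 2 and 3. Taken singly, LBR was at 0.18 and 0.03 in replicate 2, whose control nuclear library goes against its label, and at -0.30 and -0.07 in replicate 3. SUN2 gave -0.40 (-1.37 to 0.57) and -0.12 (-1.09 to 0.84), or -0.70 and -0.42 without the nuclear and total libraries of control replicate 2. SUN1 gave -0.24 (-1.15 to 0.67) and -0.20 (-1.11 to 0.72), or -0.41 and -0.37 without them. These settings too kept the cytoplasmic/ER library of that culture. Against the control of the same number, SUN2 was at -0.73 and -0.56 in replicate 1 and at -0.01 and 0.21 in replicate 3. SUN1 was at -0.52 and -0.33 in replicate 1 and at -0.22 and 0.14 in replicate 3. LMNB1 gave -0.11 (-0.96 to 0.75) and -0.08 (-0.93 to 0.78). LEMD3 gave -0.07 (-0.80 to 0.67) and -0.03 (-0.77 to 0.70), and LMNB2 -0.01 (-0.72 to 0.70) and -0.09 (-0.80 to 0.62). The direction of LMNB1 and LEMD3 within replicate 1 differed from that within replicates 2 and 3. With TPR A, LMNB1 was at -0.77 within replicate 1 and 0.22 within replicates 2 and 3, and LEMD3 at -0.60 and 0.20. With TPR D these were -0.57 and 0.17 for LMNB1 and -0.53 and 0.22 for LEMD3. Taken singly, replicate 2 gave LMNB1 0.51 (TPR A) and 0.49 (TPR D), and replicate 3 gave -0.07 and -0.14. For LEMD3 these were 0.45 and 0.36 in replicate 2 and -0.05 and 0.07 in replicate 3. The positive values thus came mostly from replicate 2, whose control nuclear library goes against its label. Leaving out the control replicate 2 libraries, 0 of 8 ratios passed and none had an unadjusted p under 0.05 against control. Standard errors of 0.31 to 0.54 leave these intervals wide. They come from the main fit, which does not pair the fractions of a culture and keeps the control replicate 2 libraries. Differences of that size were not detectable in this fit with 3 cultures a group.

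EMD, the member with a pre-mRNA under 2500 nt, was set beside other short mRNAs. Its ratio differed from control by 0.19 (95% interval -0.44 to 0.83) with TPR A and by 0.19 (-0.44 to 0.83) with TPR D. In replicate 1 it was -1.81 in the control culture, -1.35 with TPR A and -1.08 with TPR D. In replicate 2 it was -1.57 in the control and -1.87 and -1.94 in the TPR-depleted cultures, and in replicate 3 it was -1.70, -1.28 and -1.49. Both shRNAs had the higher ratio in replicates 1 and 3 and the lower ratio in replicate 2, whose control nuclear library goes against its label. Without the nuclear and total libraries of that control culture, its cytoplasmic/ER library kept, the difference was 0.27 with each shRNA (unadjusted p = 0.409 and 0.407 by limma). For both shRNAs together the difference was 0.60 within replicate 1 and -0.01 within replicates 2 and 3. Over the 530 mRNAs with a pre-mRNA under 2500 nt, the median control ratio was -0.76 and the median difference 0.44 (TPR A) and 0.32 (TPR D), against 0.01 and -0.01 over 12333 mRNAs. These medians include the control replicate 2 libraries. The 530 were chosen by length alone, with no limit on exons, and so are not matched to EMD in exon number.

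In the levels within a fraction, 0 of 8 members passed for TPR A or TPR D against control (limma, adjusted p below 0.05 over all genes). In total RNA 0.821% of all genes passed with TPR A, 0.753% passed with TPR D and 1.14% passed over the pair. In nuclear RNA the shares were 0.903%, 0.479% and 0.808%, and in cytoplasmic/ER RNA 0.623%, 0.575% and 0.643%. At an unadjusted p under 0.05 there were 3 members in total RNA, 2 in nuclear and 1 in cytoplasmic/ER RNA for TPR A, against 12.6%, 12.2% and 11.6% of all genes, and 1, 0 and 0 for TPR D, against 14.6%, 9.13% and 9.42%. For both shRNAs together these counts were 3, 0 and 0, against 16.1%, 11.8% and 11.4%. The median log2 difference of the members in total RNA was -0.57 (TPR A) and -0.38 (TPR D), against -0.01 and -0.01 over all genes. Without the control replicate 2 nuclear and total libraries these medians were -0.30 and -0.17, an alternative chosen after seeing the data. If there was a loss, RNA from whole cultures cannot tell a loss in some cells from a smaller loss in all of them.

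LBR had the lowest values with TPR A in each fraction, and not with TPR D. In nuclear RNA it was at 120, 112 and 85.2 FPKM in control, 70.2, 56.5 and 55.8 with TPR A and 130, 92.5 and 111 with TPR D. In total RNA it was at 104, 89.4 and 84.6 in control, 60.1, 69.2 and 60.4 with TPR A and 91.4, 120 and 106 with TPR D. In cytoplasmic/ER RNA it was at 31.7, 39.6 and 35.8 in control, 29.4, 17.5 and 28.8 with TPR A and 55.7, 32.0 and 49.0 with TPR D. The TPR A values lay below all control and all TPR D values in each of the 3 fractions, while those of TPR D overlapped the control. Against control the log2 change with TPR A was -0.79 ± 0.22 in nuclear RNA (adjusted p = 0.0945 by limma), -0.55 ± 0.22 in total RNA (0.294) and -0.53 ± 0.22 in cytoplasmic/ER RNA (0.327), none past the threshold. The 3 fractions come from the same cultures and are not independent. Within replicate 1 and within replicates 2 and 3 the nuclear change was -0.78 and -0.80, the total change -0.79 and -0.43 and the cytoplasmic/ER change -0.11 and -0.75. Without the control replicate 2 nuclear and total libraries the nuclear change was -0.75 (adjusted p = 0.259 by limma). With TPR D the changes were 0.07, 0.19 and 0.32.

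Set directly against each other, TPR A and TPR D differed in LBR by -0.86 ± 0.22 in nuclear RNA (adjusted p = 0.0929 by limma), -0.85 ± 0.22 in cytoplasmic/ER RNA (0.0906) and -0.74 ± 0.22 in total RNA (0.208). Cultures of these shRNAs that share a number deviated together in nuclear and in cytoplasmic/ER RNA. Blocking on that number gave LBR an adjusted p of 0.0445 by limma in nuclear and 0.0492 in cytoplasmic/ER RNA, both past the threshold. Without the block 0 of 8 members passed in nuclear, cytoplasmic/ER and total RNA, against 0.315%, 0.637% and 0.281% of all genes, and only LBR had an unadjusted p under 0.05 in each, against 8.04%, 8.10% and 7.41%. The difference was -0.89 within replicate 1 and -0.85 within replicates 2 and 3 in nuclear RNA, -0.92 and -0.82 in cytoplasmic/ER RNA, and -0.60 and -0.80 in total RNA. TPR itself was at 1.61 to 2.40 FPKM with TPR A and 1.67 to 3.08 with TPR D in nuclear RNA, ranges that overlap.

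LMNB2 had the lowest p of the lamins in total RNA, in the same direction with both shRNAs. It stood at 71.4, 108 and 57.7 FPKM in control, 44.9, 53.2 and 44.2 with TPR A and 38.2, 60.3 and 47.9 with TPR D. The TPR A values lay below all control values and those of TPR D overlapped them. The log2 changes were -0.69 ± 0.24 with TPR A (adjusted p = 0.214 by limma) and -0.67 ± 0.24 with TPR D (0.199). In total RNA control and TPR A cultures that share a number deviated together, and blocking on it gave LMNB2 an adjusted p of 0.0350 by limma for TPR A, past the threshold. The highest control value is that of the library labelled control replicate 2, and without that culture's nuclear and total libraries the changes were -0.44 (adjusted p = 0.692 by limma) and -0.42 (0.673). Within replicate 1 and within replicates 2 and 3 they were -0.67 and -0.70 for TPR A and -0.90 and -0.55 for TPR D. In nuclear RNA LMNB2 gave -0.37 with each shRNA, and in cytoplasmic/ER RNA -0.36 and -0.28.

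LMNB1 and LMNA followed the same library still more closely. LMNB1 in total RNA was at 94.8, 141 and 52.0 FPKM in control, 71.2, 60.1 and 48.4 with TPR A and 65.2, 64.3 and 49.3 with TPR D. Its log2 change with both shRNAs was -0.58 ± 0.25 (adjusted p = 0.258 by limma), and -0.25 without the control replicate 2 libraries. LMNA was at 219, 648 and 273 FPKM in control, 273, 299 and 310 with TPR A and 195, 232 and 246 with TPR D. The change of LMNA with both shRNAs was -0.40 ± 0.33 with the nuclear and total libraries of control replicate 2 and 0.07 without them, so its direction turns on the libraries of that culture. In nuclear RNA the change of LMNA was 0.67 ± 0.38 with TPR A (adjusted p = 0.506 by limma) and 0.24 without the control replicate 2 libraries.

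SUN1 had its lower values with TPR A in total and in nuclear RNA, short of the threshold. In nuclear RNA it was at 78.7, 64.3 and 106 FPKM in control, 43.8, 49.5 and 56.7 with TPR A and 75.9, 63.3 and 83.0 with TPR D. In total RNA it was at 52.3, 71.0 and 71.5 in control, 34.1, 37.2 and 51.2 with TPR A and 22.7, 56.7 and 65.9 with TPR D. The TPR A values lay below the control in both fractions, and those of TPR D overlapped it. The log2 changes with TPR A were -0.71 ± 0.31 in nuclear (adjusted p = 0.352 by limma) and -0.68 ± 0.31 in total RNA (0.372), and with TPR D -0.14 and -0.55. The total value with TPR D rests on TPR D replicate 1 (22.7 FPKM), as it was -0.07 without that culture, -1.20 within replicate 1 and -0.22 within replicates 2 and 3. SUN2 in nuclear RNA was at 83.8, 40.4 and 66.9 FPKM in control, 43.9, 36.7 and 39.3 with TPR A and 78.3, 40.0 and 65.3 with TPR D. Its low control value is again that of the library labelled control replicate 2, and its change with TPR A was -0.61 with that library and -0.91 without the nuclear and total libraries of that culture (adjusted p = 0.304 by limma).

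The LEM-domain genes overlapped the control in total RNA with both shRNAs. EMD was at 81.6, 64.4 and 79.6 FPKM in control, 79.8, 83.4 and 70.1 with TPR A and 79.6, 67.4 and 63.1 with TPR D (log2 change 0.05 with TPR A, 95% interval -0.40 to 0.50, and -0.10 with TPR D, -0.55 to 0.35). LEMD3 was at 8.30, 9.70 and 6.86 in control, 8.72, 8.33 and 8.12 with TPR A and 10.4, 9.21 and 9.21 with TPR D (0.03, -0.49 to 0.55, and 0.22, -0.30 to 0.74). The intervals allow changes of these sizes in both directions.

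**Figure D4:**
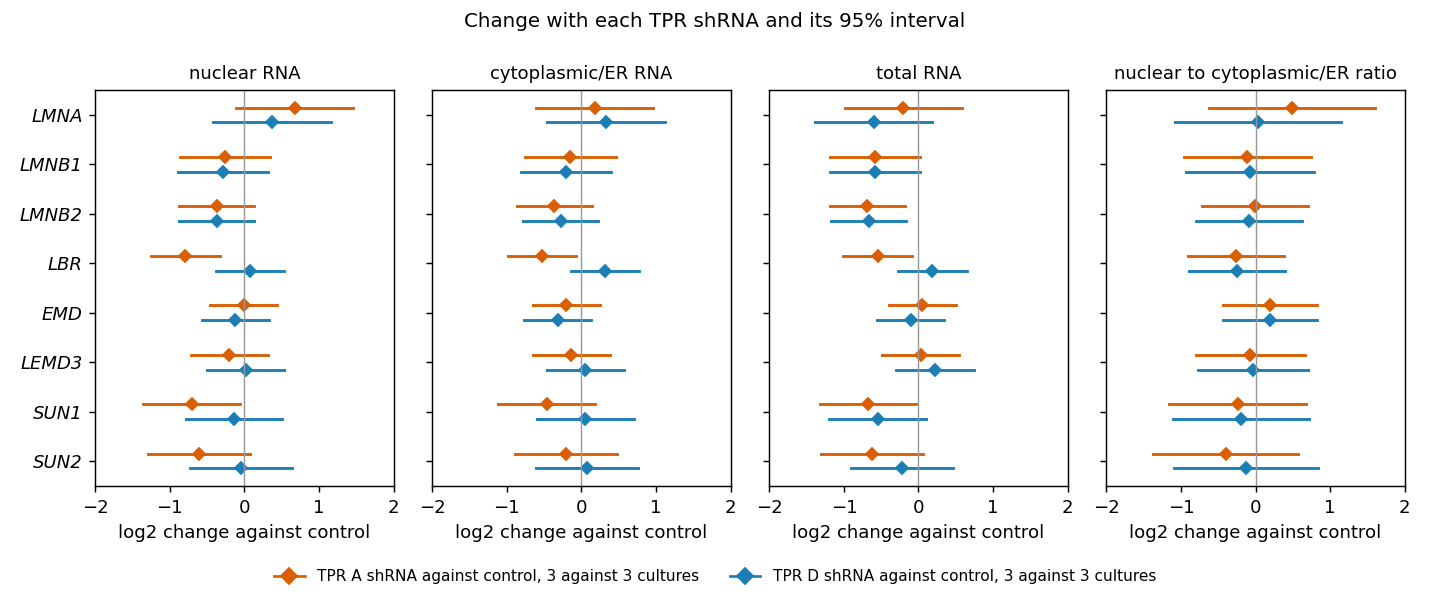
Log2 change (x axis) of the 8 members with TPR A and TPR D against control in nuclear, cytoplasmic/ER and total RNA and in the nuclear to cytoplasmic/ER ratio, with 95% intervals from limma that are not adjusted for the number of genes. LBR lies at -0.79 in nuclear RNA with TPR A and at 0.07 with TPR D, LMNB2 at -0.69 and -0.67 in total RNA, and all intervals of the ratio include 0.

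Counted over groups that do not overlap, 3 members were lower with TPR A than in control in total RNA (LMNB2, LBR and SUN1), 2 in nuclear RNA (LBR and SUN1) and 1 in cytoplasmic/ER RNA (LBR). Of all genes 8.33%, 9.01% and 8.62% were lower in this sense. With TPR D the counts were 0, 1 (LMNB2) and 0, against 7.93%, 8.34% and 7.72%, and no member was higher with either shRNA, against 9.74%, 8.16% and 7.17% for TPR A and 8.20%, 7.02% and 6.09% for TPR D. Between TPR A and TPR D 3 members did not overlap in total RNA (LBR and LEMD3 lower and LMNA higher with TPR A), and LBR and SUN1 were lower with TPR A in nuclear and in cytoplasmic/ER RNA. The shares of all genes were 15.2%, 16.8% and 11.1%.

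Across the 27 libraries, the members that were higher in nuclear RNA followed one another and EMD ran opposite to them. Pearson's r of log2 levels was 0.90 between LBR and LEMD3, 0.84 between SUN1 and SUN2 and -0.98 between EMD and LEMD3, in libraries that differ first of all by fraction. LMNA had no r above 0.38 with another member. The 3 genes most alike to each member by Pearson's r were VPS16, ABCF3 and XAB2 for LMNA (0.961 to 0.963), NASP, SFPQ and BUB1B for LMNB1 (0.942 to 0.961) and GTSE1, TIMELESS and GINS4 for LMNB2 (0.814 to 0.842). They were ENPP4, SLC16A1 and NAA15 for LBR (0.946 to 0.955), MLST8, ARRB2 and GSK3A for EMD (0.981 to 0.987) and CENPC, ASPM and CENPF for LEMD3 (0.983 to 0.988). For SUN1 they were IGF2R, LRP4 and PCDHB11 (0.956 to 0.965) and for SUN2 NCAPD3, DNMT1 and FAM98B (0.903 to 0.913). LMNB2 had the least close neighbours of the 8.

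Other genes of the envelope were counted in the same fit. Of 30 with a matched ID, 28 had a mean above 1 FPKM. In control cells 10 of the 28 were higher and 5 lower in nuclear than in cytoplasmic/ER RNA, with a median log2 ratio of 0.24 beside 1.32 for the 8 members. SYNE2 and SYNE1, which encode the giant nesprins that SUN proteins hold, had log2 ratios of 3.44 ± 0.50 and 1.62 ± 0.28 (adjusted p = 2.78e-05 and 0.000168 by limma). TM7SF2, a sterol reductase related to LBR, gave 1.50 ± 0.41 (0.00652). SUN3, a SUN protein best known from the testis, gave -1.82 ± 0.41 (0.00138), and CTDNEP1, a phosphatase of the envelope that acts on lipin, gave -1.30 ± 0.21 (6.71e-05). Among those that passed, the same 5 had the largest ratios in TPR A and in TPR D cells, at 2.99 and 3.31 for SYNE2, -2.26 and -1.90 for SUN3, 1.34 and 1.21 for SYNE1, 1.49 and 1.19 for TM7SF2 and -1.36 and -1.48 for CTDNEP1. VRK1, a kinase that phosphorylates BAF, had a ratio of 1.48 in TPR D cells that did not pass (adjusted p = 0.0551 by limma). Of the LAP2, BAF and LEM genes 2 of 4 were higher and 1 lower in control cells, of the nesprin and SUN genes 2 of 4 and 1, of the torsin system 2 of 4 and 1, of the other inner membrane genes 3 of 11 and 2, and of the prelamin processing genes 1 of 5 was higher, ZMPSTE24 (1.03 ± 0.24). Against control none of the 28 passed in any fraction with TPR A or TPR D, by limma, with 0 to 3 at an unadjusted p under 0.05 in each. Their median total difference was -0.19 (TPR A) and -0.01 (TPR D), or -0.09 and 0.03 without the control replicate 2 nuclear and total libraries.

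Of 27 genes of the nuclear pore outside the basket, 9 were higher and 0 lower in nuclear RNA of control cells (median log2 ratio 0.41). With TPR D 1 of the 27 was lower in total and 1 in nuclear RNA, NUP160 both times, a scaffold nucleoporin of the Y complex, named after its values were seen. With TPR A none passed (limma, 4 in total and 3 in nuclear RNA at an unadjusted p under 0.05). The median total difference of the 27 was -0.38 (TPR A) and -0.30 (TPR D), beside -0.57 and -0.38 for the 8 lamina and envelope genes. Without the control replicate 2 nuclear and total libraries the pore medians were -0.09 and -0.13, beside -0.30 and -0.17 for the 8 genes, and with TPR D 1 of the 27 passed in nuclear and 0 in total RNA (limma, 2 there at an unadjusted p under 0.05).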

How the data were processed

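RNA Frac-Seq libraries were made by the authors from poly(A)+ RNA with a directional kit. Per the labels and the study's methods, reads were quantified with Salmon against Gencode transcripts on hg19 and summed to genes with tximport, and the authors deposited the result as FPKM values of 34464 genes. They used DESeq2 for their fold changes, which are not used here. The estimated depth is given with the levels, and 0 value columns could not be tied to a sample.

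Each library was scaled by a median-of-ratios factor (0.954 to 1.06), 0.1 was added and log2 was taken, so that fold changes are on the log2(FPKM + 0.1) scale and understate changes of low genes. Genes with a mean above 1 FPKM outside the mitochondrial genome (13 genes left out) were kept, 14611 in all. Symbols came from GENCODE release 44 on GRCh37 (32776 IDs matched, 1688 not). A linear model (limma 3.58.1 under R 4.3.3, eBayes with a trend) was fitted on 27 libraries in 9 groups, with Benjamini-Hochberg adjustment over all genes and a threshold of 0.05. It was tested on simulated data. Python 3.11.15 (pandas 2.3.3, numpy 2.4.6, scipy 1.17.1, and matplotlib 3.10.9 for figures) gave the other values. Depth was taken from 7317 genes with 1 transcript. After 240 nt were taken off each length, 84.7% of 31357 low values came within 0.1 of whole reads.

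Same-numbered nuclear and cytoplasmic/ER libraries come from the same culture, and the deviations of each such pair from their group means correlated at 0.223 to 0.469. Deviations of same-numbered cultures also correlated in every pair between control and TPR A in total RNA (0.137 to 0.324) and between TPR A and TPR D in nuclear (0.131 to 0.266) and cytoplasmic/ER RNA (0.398 to 0.597), so blocked values are given there where they change a call. No 2 libraries were identical. The p-values measure the spread between libraries of the same group, pooled over the 9 groups (18 residual degrees of freedom). These libraries come from 9 cultures of a single line. The main fit took the fractions of a culture as independent and kept the 2 libraries that go against their labels.

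The 8 members are named in every comparison. Other envelope genes are named when past the threshold, the 5 with the largest change where more passed, and pore genes are counted. POM121C and PECAM1 had no matched ID and SYNE3 and SYNE4 were below the minimum. The members and lists were chosen with earlier results of these data known. One coding end is not reported here.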

Additional observations from a re-analysis of the deposited data

How the results depend on the processing

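The alternatives were FPKM as deposited, pseudocounts of 0.01 and 1, no minimum FPKM, a minimum mean of 5, no trend, only the libraries compared, each culture left out, the nuclear and total libraries labelled control replicate 2 left out, replicate 1 alone, replicates 2 and 3 alone, and the replicate number or the culture as a block. Of 3096 values of the 8 members over these alternatives, 13 newly passed the threshold and 8 no longer did. No call changed sign. Another 190 values, not past the threshold in either fit, changed sign. Of those, 10 started over 0.3 in size, 9 of them for LMNA.

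With the replicate number as a block, 1 member passed where none did before in each of 6 comparisons. It was LMNB2 in total RNA for TPR A, TPR D and both together, and LBR in nuclear RNA for TPR A against control and in nuclear and cytoplasmic/ER RNA for TPR A against TPR D. Same-numbered cultures did not deviate together in every pair for TPR D against control in total RNA or for TPR A against control in nuclear RNA, so the block rests there on a shared number only. The block by replicate or by culture changed no other call. Over the cultures left out in turn, the count for both shRNAs in total RNA was 0 to 2 (LMNB1 and LMNB2 without control replicate 3), and for TPR A against TPR D in cytoplasmic/ER RNA 0 to 1 (LBR without TPR D replicate 2). The counts of nuclear against cytoplasmic/ER calls ranged from 4 to 7 in TPR A cells and from 5 to 6 in TPR D cells. As deposited, the levels in control total RNA moved by less than 1 SD and kept their order. Leaving out 1 of 3 values cannot move their mean by 1 SD, so the shift without replicate 2 is given as levels. The mean fell from 380 to 246 FPKM for LMNA and from 96.0 to 73.4 for LMNB1. It rose from 92.7 to 94.4 for LBR and from 75.2 to 80.6 for EMD. With 3 cultures a group, differences near the standard errors given could not be detected.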

Other observations

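The level of LMNA relative to the B-type lamins was not part of a comparison and is given as values. In total RNA the ratio of LMNA to LMNB1 FPKM was 2.31 to 5.25 in control, 3.84 to 6.41 with TPR A and 2.99 to 4.98 with TPR D cultures. In nuclear RNA it was 2.75 to 8.74 in control, 5.15 to 12.0 with TPR A and 6.23 to 7.90 with TPR D. In cytoplasmic/ER RNA it was 5.94 to 11.7, 5.64 to 17.2 and 6.62 to 20.8. The ranges of the 3 shRNAs overlapped in each fraction, and the ratio sums lamin A and lamin C.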
